A study of Saccharomyces cerevisiae BY4741 with 2 samples.

Results

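This account covers 10 genes of the budding yeast Saccharomyces cerevisiae that serve growth on non-fermentable carbon: PCK1, SFC1, MLS1, GUT1, GUT2, SIP4, JEN1, ACS1, ATO2 and YAT1. They were chosen by name, with earlier results of these data known, out of 2809 distinct gene names in the deposited values. They stand on 17 of 3146 rows. GUT1, ACS1, ATO2 and YAT1 have 1 row each, PCK1, SFC1, MLS1, GUT2 and SIP4 have 2, and JEN1 has 3. What distinguishes the rows of a name is not given in the sources used here, so each row is described apart, numbered in file order. Rows of the wild type and of the deletion strain were matched by their place in the files, where the names were the same at every place.

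The study sequenced ribosome-depleted total RNA, keeping strand information, from a wild-type strain and from a strain lacking DBP2, a gene for a DEAD-box RNA helicase. Both strains are labelled as MATa haploids of the BY4741 background, grown at 30°C to mid-log phase in a rich medium that held 2% glucose. The reference strain is given as ura3Δ0, met15Δ0, leu2Δ0 and his3Δ1. The deletion strain is given as his3Δ0, leu2Δ0, ura3Δ0, TRP1, met- and lysΔ in addition to dbp2::KanMx, so the strains differ in more than DBP2. The labels list 2 replicates per strain but 1 value per row and strain was deposited, in FPKM (fragments per kilobase of transcript, scaled to library size). No difference below therefore has a replicate check, and no test, standard error or p-value could be computed.

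Yeast growing on glucose ferments it and keeps the genes for other carbon sources repressed, largely through the repressor Mig1 and the inactivity of the kinase Snf1. When glucose runs out, Snf1 activates the zinc-cluster activators Cat8 and Sip4, which bind the carbon source-responsive element in the promoters of genes for gluconeogenesis, the glyoxylate cycle and acetate use. The cells then make sugar phosphates from ethanol, acetate, lactate or glycerol.

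All 10 genes have a single exon in the RefSeq annotation of R64, which is the assembly that sacCer3 stands for. None overlaps another annotated gene. None of the 35-base windows in any of the 10 coding sequences occurs elsewhere in R64, also in the case of MLS1, whose paralog DAL7 encodes another malate synthase. Of the 10 genes, 5 lie within 50 kb of a chromosome end, the closest being JEN1 at 22.2 kb. MLS1 ends 5616 bp before DBP2 on chromosome XIV, with 3 coding genes between them.

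The promoters show what several of these genes share. The element described above is known from genes of these pathways, so its matches here are no independent result. In the 600 bases before the start codon, on both strands, the full consensus of the carbon source-responsive element occurred in PCK1, MLS1, SIP4, ACS1 and YAT1, which is 5 of the 10 genes, and in 0.533% of 5999 coding-gene promoters of the same length (32 promoters). The shorter pattern CCNNNNNNCCG, which contains the consensus, was found in 6 of the 10 genes and in 24.7% of all promoters; SFC1 was the gene added by it. The consensus matches are shown with the pattern in capitals, each as 30 bases of RefSeq R64 written 5′ to 3′ on the strand that carries the match, because they are the element that Cat8 and Sip4 recognise. SFC1 is shown for contrast, as a match to the shorter pattern that misses the full consensus.
PCK1 (chrXI:630581-630610, minus strand, 562 to 552 bases before the start codon): atccagatctCCATTCACCCGtcagcgtcc
MLS1, far site (chrXIV:405818-405847, minus strand, 531 to 521 bases before): atggggatttCCATTGAGCCGatagcaatg
MLS1, near site (chrXIV:405849-405878, plus strand, 500 to 490 bases before): tcatagcttCCATTGGGCCGatgaagttag
SIP4 (chrX:265642-265671, plus strand, 275 to 265 bases before): ccattttcgCCGTTCGACCGgtgttttggc
ACS1 (chrI:45427-45456, plus strand, 425 to 415 bases before): gagtgctacgCCGTTCGTCCGagatgatta
YAT1 (chrI:190048-190077, plus strand, 136 to 126 bases before): gcggactttCCGTCCGCCCGgcgggctgta
SFC1 (chrX:609184-609213, minus strand, 580 to 570 bases before): tcgccaacgtCCATTTCTCCGggcgggcgc

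MLS1 was the gene with consensus matches at 2 places in this window. The hexamer CCCCGC, a form of the GC box that Mig1 binds, was found upstream of GUT2, ATO2 and YAT1. That is 3 of the 10 genes, beside 6.78% of all promoters. Other forms of the GC box were not searched. CCAAT, the box bound by the Hap complex that activates respiratory genes, was found in 9 of the 10 genes and in 70.3% of all promoters. These matches describe letters in a window and are not measured binding sites.

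The strain labels were checked first. DBP2 was listed on 3 rows at 1539.7, 348 and 5.62 FPKM in wild type, and where the gene is deleted these rows were at 2.52, 3.70 and 3.33 FPKM. LEU2, deleted in both strains, was listed at 1.69 FPKM in wild type against 0.54 FPKM without DBP2, 3.11-fold lower. Of the mating-type markers, 5 a-cell genes ranged from 18.6 to 915 FPKM in wild type and from 10.4 to 737 FPKM in the deletion strain, while 2 alpha-cell genes did not exceed 4.10 FPKM. The 5 values of deleted genes, 0.54 to 3.70 FPKM, show what is listed for LEU2 and DBP2 in strains that lack them. The values of the 10 genes are set beside them. The range rests on these genes alone, as the others given as deleted were not looked up. The alpha-cell value of 4.10 FPKM lies above it.

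Apart from GUT1, the 10 genes were mostly low. Over their 17 rows the wild-type values ran from 0.56 to 102 FPKM with a median of 9.32 FPKM, against a median of 46.6 FPKM over all rows. In the deletion strain they ran from 2.22 to 117 FPKM with a median of 7.20 FPKM, against 52.3 FPKM over all rows. GUT1 was the highest in both strains and stood above both medians, with 65.6% of all rows below it in wild type and 69.6% in the deletion strain. Without it no row exceeded 22.6 FPKM in wild type or 68.6 FPKM in the deletion strain. Within the range of deleted genes, at or below 3.70 FPKM, were 4 rows in wild type (both of PCK1, the first of SFC1 and the first of SIP4) and 2 in the deletion strain (the second of SIP4 and the second of JEN1).

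**Figure D1:**
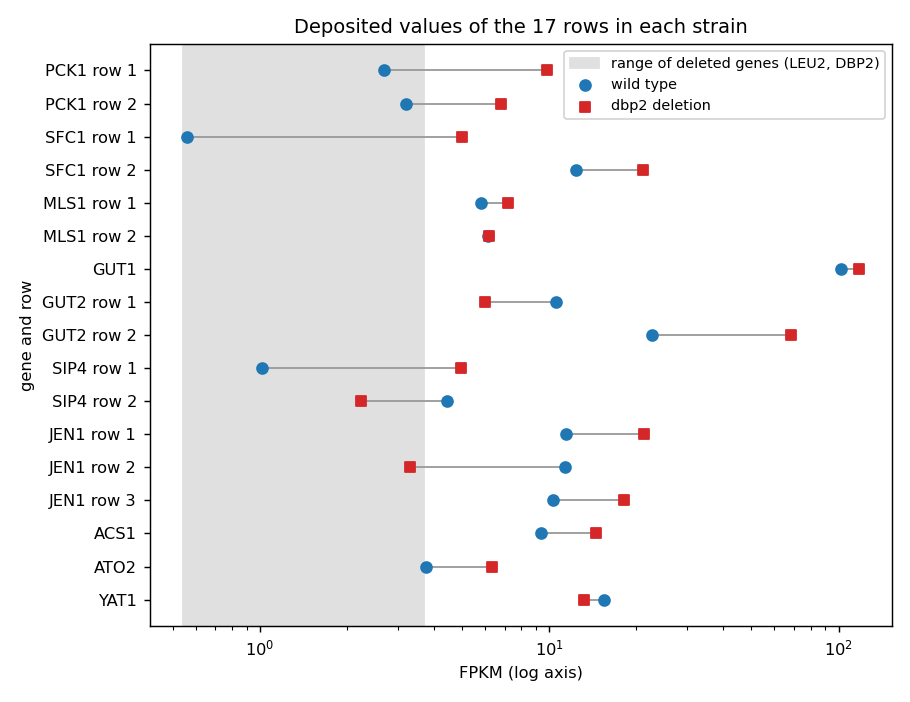
Deposited FPKM (log axis) of each row of the 10 genes in wild type (circles) and the dbp2 deletion strain (squares), 1 value per strain, with the range of the deleted genes LEU2 and DBP2 shaded from 0.54 to 3.70 FPKM. In wild type 4 rows lie inside the shading, and in the deletion strain 2, with GUT1 apart at 102 and 117 FPKM.

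PCK1 and SFC1 had higher values in the deletion strain on every row, by 1.71-fold to 8.96-fold. Genes were counted as 2-fold different when the log2 ratio of (FPKM + 1) reached 1 in size. This scale shrinks the ratios of low genes. A fold in the text is the plain ratio of deposited values, which can be large near the level of deleted genes. LEU2, which both strains lack, differed 3.11-fold by that ratio. PCK1, the phosphoenolpyruvate carboxykinase of gluconeogenesis, was 2.67 FPKM in wild type against 9.86 FPKM without DBP2 on its first row, 3.69-fold higher with a log2 ratio of 1.56. Its second row was 3.19 FPKM and 6.80 FPKM, 2.13-fold higher, and its log2 ratio of 0.90 was short of the limit. Both wild-type values lay among those of deleted genes, while both values of the deletion strain lay above them.

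SFC1 encodes the mitochondrial carrier that exchanges succinate for fumarate and so brings the product of the glyoxylate cycle into mitochondria. Its first row was 0.56 FPKM in wild type against 5.001 FPKM without DBP2, 8.96-fold higher with a log2 ratio of 1.95. With a pseudocount of 5 that log2 ratio was 0.85, and 1.42 for the second row of GUT2 was then the highest of the 17. The first SFC1 row met the minimum mean of 1 FPKM through the deletion strain's value. The second row, well above the deleted genes in both strains, was 12.3 FPKM and 21.1 FPKM, 1.71-fold higher.

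MLS1, ACS1, YAT1 and ATO2 differed by less than 2-fold. MLS1, the malate synthase of the glyoxylate cycle, was 5.83 FPKM in wild type against 7.20 FPKM without DBP2 on the first row, and 6.13 FPKM and 6.20 FPKM on the second. ACS1, the acetyl-CoA synthetase used when glucose is scarce, was 9.32 FPKM and 14.5 FPKM, 1.56-fold higher. The second MLS1 row had the log2 ratio nearest to 0 of all 17 rows, 0.01, and -0.08 with both strains set to equal medians. The first MLS1 row had 0.26. YAT1, the carnitine acetyltransferase of the outer mitochondrial membrane, was the gene of a single row with a lower value, at 15.4 FPKM in wild type against 13.2 FPKM without DBP2, 1.17-fold lower. ATO2, a membrane protein of the acetate and ammonium transporter family, was 3.76 FPKM and 6.36 FPKM, 1.69-fold higher.

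GUT1 and the second row of GUT2, both of glycerol use, were the highest rows of the 10 genes in both strains. GUT1, the glycerol kinase, was 102 FPKM in wild type against 117 FPKM without DBP2, 1.15-fold higher. GUT2, the mitochondrial glycerol 3-phosphate dehydrogenase that takes the next step, had rows in opposite directions. Its first row was 10.6 FPKM and 5.97 FPKM, 1.77-fold lower, and its second row was 22.6 FPKM and 68.6 FPKM, 3.04-fold higher with a log2 ratio of 1.56. The second GUT2 row was the 1 row counted as 2-fold higher whose values lay above those of deleted genes in both strains.

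The rows of the lactate transporter gene and of SIP4 also disagreed. JEN1, which encodes the permease for lactate and pyruvate, was 11.4 FPKM in wild type against 21.2 FPKM without DBP2 on its first row, 1.86-fold higher. Its second row was 11.4 FPKM and 3.29 FPKM, 3.45-fold lower, the 1 row of the 17 that was at least 2-fold lower. The third row was 10.3 FPKM and 18.1 FPKM, 1.76-fold higher. The 3 JEN1 rows were thus alike in wild type and apart in the deletion strain. SIP4, the activator, was 1.01 FPKM and 4.94 FPKM on its first row, 4.87-fold higher, and 4.44 FPKM and 2.22 FPKM on its second, 1.99-fold lower. These opposite directions rest on matching rows by place. Matched the other way, 1.01 FPKM would stand beside 2.22 FPKM and 4.44 FPKM beside 4.94 FPKM, both higher in the deletion strain. For each SIP4 row as matched here, 1 of its 2 values lay among those of deleted genes.

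Because the 10 genes were chosen with earlier results of these data known, the shares below describe them and are no independent support. Counted over rows, 4 of the 17 (23.5%) were higher without DBP2 by 2-fold or more, against 10.4% of all 2836 rows compared. At least 2-fold lower was 1 of the 17 (5.88%), against 12.3%. All 4 higher rows, and the lower one, belong to the 13 rows of names on more than 1 row, of which they are 30.8% and 7.69%. Among all rows of such names 15.9% were at least 2-fold higher and 17.1% lower. Of the 4, 3 had wild-type values within the range of deleted genes. The first SFC1 row, among these 3, passed the minimum mean through the deletion strain's value. Of the 17 rows 13 were higher in the deletion strain to any degree, with a median log2 ratio of 0.63, beside 47.3% and a median of -0.05 over all rows compared. Low rows as a whole leaned the same way: of 1256 rows with a mean of 1 to 50 FPKM, a range chosen after the values were seen, 57.0% were higher, 14.6% at least 2-fold, with a median of 0.18. Of the 16 rows of the 10 genes in that range, 12 were higher, 4 at least 2-fold, with a median of 0.68.

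**Figure D2:**
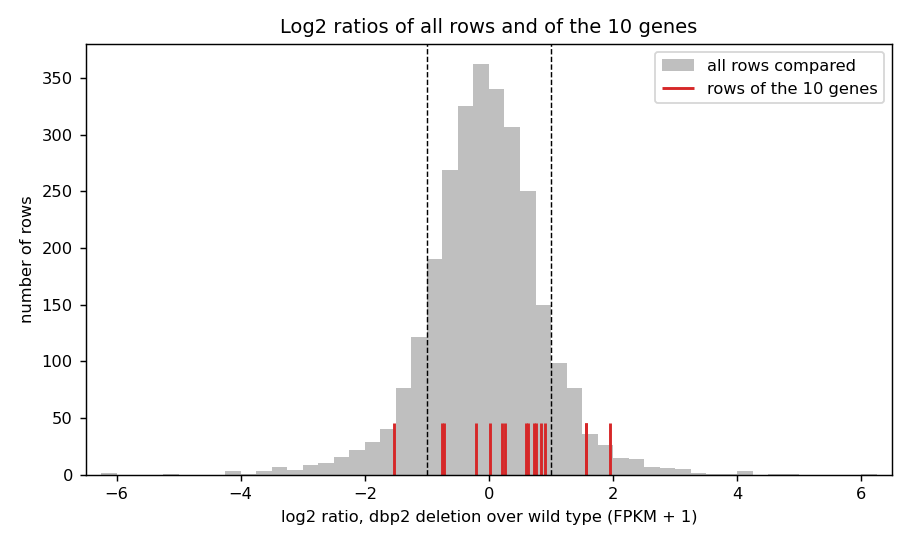
Number of rows (vertical axis) by log2 ratio of the deletion strain over wild type, in bins of 0.25, for the 2836 rows compared (grey), with the 17 rows of the 10 genes as red ticks and dashed lines at 2-fold; 2 rows lie outside the axis. The ticks lie mostly right of 0, 4 past the upper line and 1 past the lower.

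**Figure D3:**
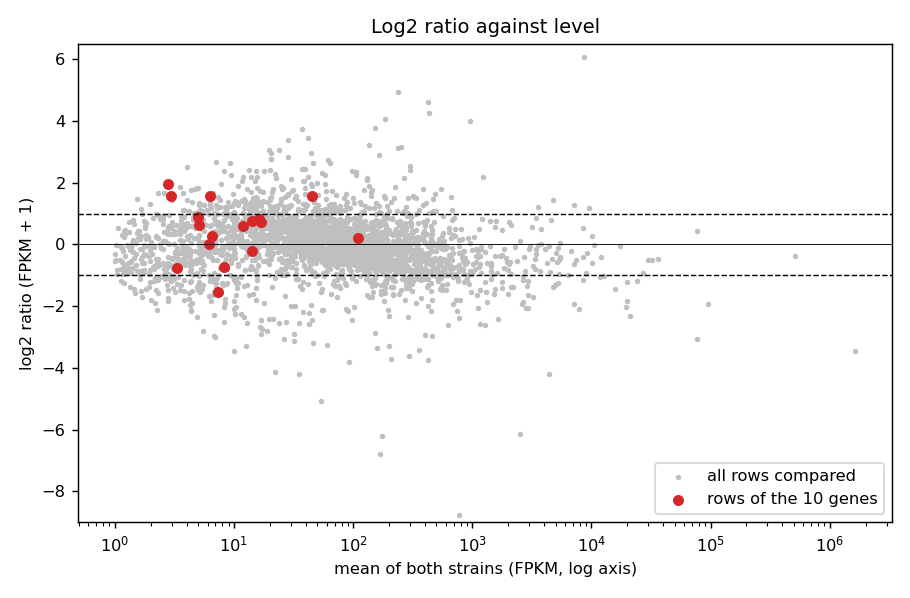
Log2 ratio (FPKM + 1) against the mean of both strains (log axis) for all rows compared (grey) and the 17 rows of the 10 genes (red), with dashed lines at 2-fold. The 3 rows at least 2-fold higher on the left have means of 2.78 to 6.26 FPKM, and the fourth, of GUT2, has a mean of 45.6 FPKM.

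Counts depended on how the strains were scaled to each other. Equalising the sums of protein-coding genes on 1 row shifted the deletion strain up by 0.47 on the log2 scale. By that scaling 10 of the 17 rows were at least 2-fold higher and 1 was lower, against 22.3% and 6.14% of all rows. The median of the 17 rows was then 1.04 and that of all rows 0.39. YAT1 changed direction under this scaling, to a log2 ratio of 0.23, and 14 of the 17 rows were higher. With equal medians 12 were.

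When the rows of each name were added up, which does not depend on how rows were matched, 9 of the 10 genes were higher in the deletion strain, and YAT1 was lower. PCK1 was then 5.86 FPKM and 16.7 FPKM (2.84-fold), GUT2 33.2 FPKM and 74.5 FPKM (2.25-fold), and SFC1 12.9 FPKM and 26.1 FPKM (2.02-fold, with a log2 ratio of 0.96). The sums for SIP4, JEN1 and MLS1 were 1.31-fold, 1.29-fold and 1.12-fold higher. By the log2 limit 2 of the 10 names, PCK1 and GUT2, were at least 2-fold higher and 0 lower, against 9.48% and 11.0% of 2520 names.

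Rows of a name in opposite directions were common in these data. Among 258 names on 2 rows with both compared, 55.8% had 1 higher and 1 lower row, 23.6% had both higher and 20.5% both lower. The 5 such names here were split into PCK1, SFC1 and MLS1 with both rows higher and GUT2 and SIP4 in opposite directions. The row with the larger value was the same one in both strains for 80.2% of the 258 names, and for 2 of these 5, SFC1 and GUT2. In PCK1, MLS1 and SIP4 the larger row was a different one in each strain.

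**Figure D4:**
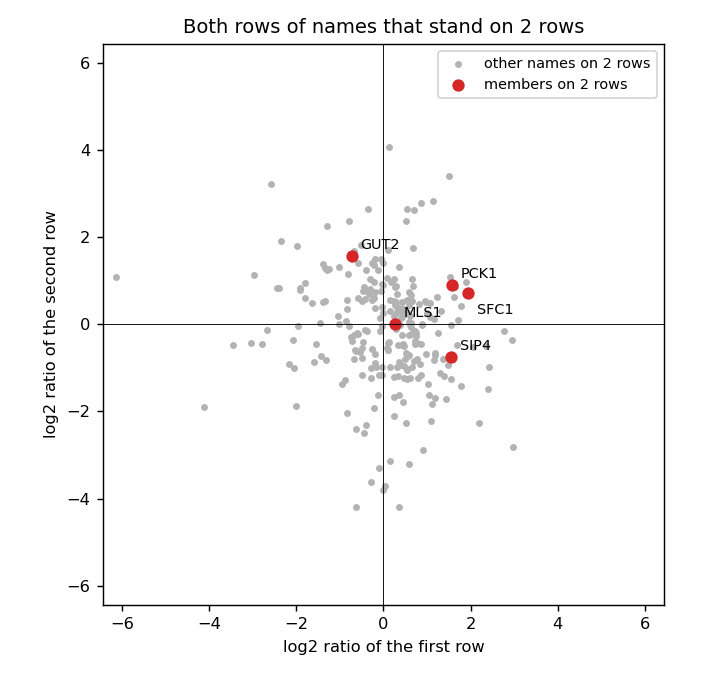
Log2 ratio of the second row against that of the first for the 258 names on 2 rows, with the 5 of the genes described here in red. PCK1, SFC1 and MLS1 lie in or at the edge of the upper right, GUT2 at the upper left and SIP4 at the lower right.

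The wider set of genes for non-fermentable carbon and its control was counted against the same background. Its list was also made with earlier results of these data known. Of 73 genes listed by role, 24 were in the values analysed here, the 10 genes included. Among the genes absent from the values were FBP1, ICL1, ADH2, CAT8, ADR1, MIG1, SNF1 and HXK2. Their 37 rows held 7 that were at least 2-fold higher (18.9%, against 10.4% of all rows compared) and 5 lower (13.5%, near the 12.3% of all rows). Without the 10 genes, 20 rows of 14 genes remained, of which 3 were at least 2-fold higher (15%) and 4 lower (20%), with a median log2 ratio of -0.06 beside -0.05 over all rows.

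By role, the metabolic enzymes outside the 10 genes showed both directions. MDH2, the cytosolic malate dehydrogenase of gluconeogenesis, was 89.0 FPKM in wild type against 137 FPKM without DBP2. CIT2, the peroxisomal citrate synthase, was 809 FPKM and 311 FPKM, 2.61-fold lower, and DAL7 was 97.3 FPKM and 145 FPKM. ALD6, the cytosolic aldehyde dehydrogenase that makes acetate, was 1334 FPKM and 550.0 FPKM, 2.42-fold lower. CIT2 and ALD6 were thus far above the 10 genes in level and lower in the deletion strain. DAK2, a dihydroxyacetone kinase, was 4.27 FPKM and 43.3 FPKM on its first row, 10.1-fold higher, and within 1.28-fold on its other rows. ADY2, an acetate transporter related to ATO2, was 6.04 FPKM and 5.93 FPKM on one row and 5.69 FPKM and 11.7 FPKM on the other, and the mitochondrial oxodicarboxylate carrier ODC1 was 120.3 FPKM and 93.6 FPKM.

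The regulators were split within single names, as SIP4 was. HAP4, the activating subunit of the Hap complex, was 13.5 FPKM in wild type against 49.0 FPKM without DBP2 on its first row, 3.62-fold higher, and 15.7 FPKM and 5.31 FPKM on its second, 2.96-fold lower. GSM1, a zinc-cluster protein, was 5.50 FPKM and 1.62 FPKM on its first row and 2.60 FPKM and 16.2 FPKM on its second. SIP4, HAP4 and GSM1 each had 1 row at least 2-fold higher, and the second row of HAP4 and the first of GSM1 were at least 2-fold lower. RDS2, a regulator of gluconeogenic genes, was 76.6 FPKM and 62.4 FPKM, and the corepressor gene TUP1 was 55.2 FPKM and 64.9 FPKM. In the GID ubiquitin ligase, which marks gluconeogenic enzymes for degradation when glucose returns, no row reached 2-fold: VID28 was 65.0 FPKM and 43.8 FPKM, FYV10 was 10.01 FPKM and 15.3 FPKM, and GID7 was 20.1 FPKM and 25.9 FPKM on one row and 3568 FPKM and 1956 FPKM on the other.

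**Figure D5:**
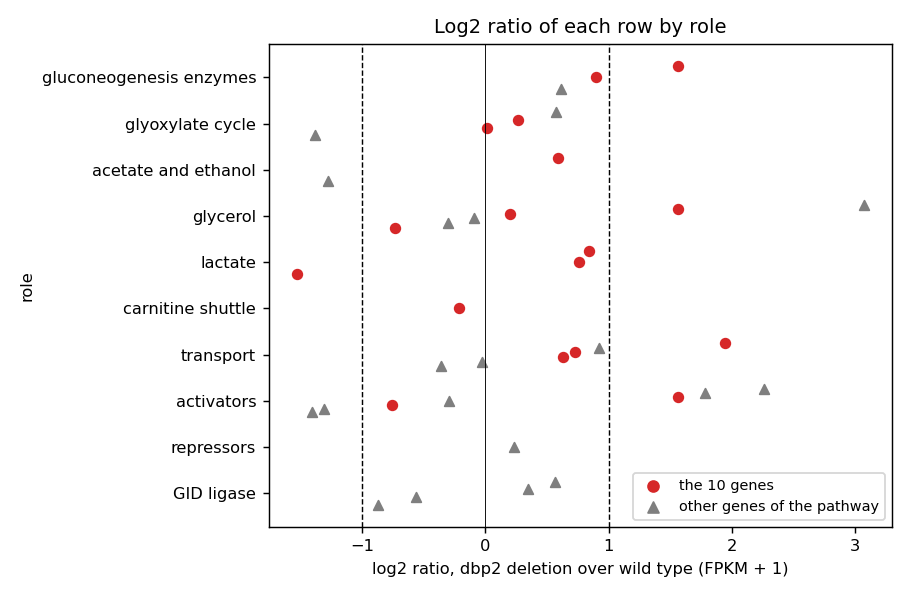
Log2 ratio (FPKM + 1) of each row by role, for the 10 genes (red circles) and the other genes listed for the pathway (grey triangles), with dashed lines at 2-fold. Apart from gluconeogenesis enzymes, every role with more than 1 row shows rows on both sides of 0. The GID ligase, the carnitine shuttle and the repressors have no row past either line.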

How the data were processed

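Ribosome-depleted total RNA was sequenced on SOLiD libraries, per the labels' protocols. The deposited values were taken as FPKM, since Cuffdiff 2.1.1 is named in the submitters' processing notes and the values are not whole and sum to 5210210 and 1724410, more than CPM could. The notes give the build sacCer3. How the authors aligned reads, annotated genes, used strand and combined replicates is not given in the sources used here. Read counts were not used here, so depth is unknown and no counting interval was computed. FPKM are relative within a library, so less RNA of a gene per cell and more RNA of other genes cannot be told apart.

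Rows above 0 in both strains with a mean of at least 1 FPKM were compared, 2836 of 3146, as log2 of (deletion + 1) / (wild type + 1), with no further scaling. With 1 sample per strain there is no test; called means at least 2-fold. The calling step was checked on simulated data without noise, made from rows above the level of deleted genes. The check therefore does not bear on calls near that level. The members and lists were chosen with earlier results of these data known. All genes of the wider list found in the files are named. Names were matched through RefSeq R64, all 10 members included, and sequences are from RefSeq. Python 3.11.15, numpy 2.4.6, pandas 2.3.3 and matplotlib 3.10.9 were used.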

Additional observations from a re-analysis of the deposited data

How the results depend on the processing

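No paired analysis was possible because each strain has 1 deposited sample, and for the same reason no replicate could be left out. The 17 rows had a median log2 ratio of 0.63, with 4 rows at least 2-fold higher and 1 lower. A pseudocount of 0.1 gave a median of 0.74. A pseudocount of 5 gave 0.45, with 1 higher (5.88%, below the 7.55% of all rows) and 0 lower (against 9.03%). The wider list then had 4 and 3 of 37 rows, where the main comparison had 7 and 5. Rows with a mean of at least 10 FPKM left 7 of the 17, with a median of 0.73. Of these 1 was higher (14.3%, against 10.4% of all such rows) and 0 lower (against 11.0%). The wider list then had 3 and 3 of 21 rows. Adding up rows gave 0.47, with 2 of 10 names higher (20%, against 9.48% of all names) and 0 lower (against 11.0%). The wider list then had 4 and 2 of 24 names. Keeping the highest row of each name gave 0.61, with 2 higher (20%, against 10.4% of all names) and 0 lower (against 11.2%). The wider list then had 5 and 2 of 24 names. Equal medians gave 0.54. Equal sums over all protein-coding rows gave 2.60, with 15 higher (88.2%, against 85.7% of all rows) and 0 lower (against 1.00%). The wider list then had 31 and 0 of 37 rows. This scaling made all 17 rows higher. It turned the second JEN1 row to 0.28, the first GUT2 row to 1.19, the second SIP4 row to 0.94 and YAT1 to 1.80. That sum is set by 1 row of MAS2, which held 75.0% of it in wild type, and the scaling raised the median of all rows to 1.96. Equal sums over protein-coding genes on 1 row, added after the data were seen, gave 1.04, against a median of 0.39 over all rows. By that scaling 10 were higher (58.8%, against 22.3% of all rows) and 1 lower (5.88%, against 6.14%). The wider list then had 17 and 3 of 37 rows. Leaving out the filter changed none of these counts or the median. Rows near the level of deleted genes limit what a fold can show.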

Other observations

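Genes whose promoters carry the carbon source-responsive element consensus were looked at beyond the 10 genes. Of the 32 genes with a match in the 600 bases before the start codon, 12 others were in the values, on 13 rows. Of these rows 9 were higher in the deletion strain, 1 at least 2-fold, and 0 were at least 2-fold lower. Their median log2 ratio was 0.19. Over all rows compared 10.4% were at least 2-fold higher and 12.3% lower, with a median of -0.05. The row at least 2-fold higher was FLC2, which shares a divergent promoter with ACS1. It was 74.2 FPKM in wild type against 178.5 FPKM without DBP2. DCP2, a subunit of the mRNA decapping enzyme that shares the divergent promoter of MLS1, was 135 FPKM and 141 FPKM. FLC2 and DCP2 start 876 and 793 bases from ACS1 and MLS1, so their windows hold the ACS1 and MLS1 matches shown above. These rows therefore do not all stand apart from the 10 genes. Among the 10 genes, the 8 rows of genes with the consensus included 2 at least 2-fold higher and had a median of 0.43, and the 9 rows of genes without it included 2 higher and 1 lower and had a median of 0.73.

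The coding genes next to the 10, FLC2 and DCP2 among them, were described in the same way. Of 20 such neighbours 18 were in the values, each on 1 row, with 4 at least 2-fold higher, 3 lower and a median log2 ratio of 0.06, to be read against the same shares of 10.4% and 12.3%. URA1, the dihydroorotate dehydrogenase gene that follows JEN1 on the same strand, was 2196 FPKM in wild type against 358 FPKM without DBP2. YJR096W, which follows SFC1 on the same strand, was 49.1 FPKM and 128 FPKM. YAR035C-A, on the opposite strand 80 bases beyond YAT1, was 36.5 FPKM and 5.98 FPKM.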
